A study of Mus musculus with 19 samples.

Results

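Hypoxic melanocytic cells were taken from tumours that grew from Melan-a, an immortalised mouse melanocyte line, after injection into syngeneic mice. The tumours were of BAP1 knockout (KO) cells, made by CRISPR, and of BAP1 wild-type (WT) cells, grown subcutaneously ("skin") or in the eye ("ocular"), with 1 tumour of each kind, 4 in all, and no drug given. BAP1 is a nuclear deubiquitinase and tumour suppressor. The sources used here do not give which knockout clone made the tumours, nor the strain, sex and age of the mice or the day of harvest. The 4 tumours were dissociated and profiled by droplet single-cell RNA-seq as 4 matrices of UMI counts, a UMI being a tag that marks 1 captured molecule. Genotype and site rest on the submitters' matrix names alone. The matrices are called KO skin, WT skin, KO ocular and WT ocular below, and per-matrix values stand in that order.

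The cells were chosen by a rule that used their RNA. A barcode counted as a melanocytic cell with at least 2000 UMIs, under 20% mitochondrial UMIs, at least 5 of 9 pigment cell genes detected (Mlana, Pmel, Tyr, Tyrp1, Dct, Slc45a2, Slc24a5, Oca2 and Gpr143) and no UMI of the leukocyte gene Ptprc or the macrophage gene C1qb. Of 74436 barcodes, 25471 were such cells: 7360, 4673, 4675 and 8763 in the 4 matrices. Within each matrix they were ranked by the summed CPM (UMIs per 1000000 UMIs) of 8 genes of the hypoxia response, Car9, Egln1, Egln3, Ero1l, Higd1a, Plod2, Fam162a and Pdk1. The top 10% were called hypoxic, 2546 cells in all (736, 467, 467 and 876), and were set against the bottom 50%, 12734 cells (3680, 2336, 2337 and 4381). Oxygen itself was not measured, so hypoxic is a name for the expression of these genes.

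When oxygen is short, the prolyl hydroxylases (Egln1 and Egln3) that mark the transcription factor subunits HIF-1α and HIF-2α for destruction through VHL lose activity. The stabilised subunits pair with ARNT, bind short ACGTG or GCGTG cores near genes and raise glucose uptake, glycolysis, pH control, mitophagy and signals to blood vessels. HIF also raises its own brakes, among them Egln1 and Egln3. In human melanoma cells, low oxygen is known to lower the pigment regulator MITF through the repressor BHLHE40.

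Depth and workflow differed between matrices. WT ocular was written by another Cell Ranger version than the other 3, lists 32285 genes against 19059 and has barcodes of 16 bases against 24, so its levels are not on one scale with theirs. Every test below compared top with bottom cells within a matrix. The matrices held 88.8 to 115.6 M UMIs (M, 1000000 UMIs). Full barcodes were not shared by any pair of matrices, but the first 16 bases, the length of a WT ocular barcode, were shared by 1793 to 2417 barcodes in each pair of KO skin, WT skin and KO ocular and by 0 to 4 in pairs with WT ocular. Of the top cells, 31.4%, 27.8%, 27.8% and 0% had such a shared start, against 28.9%, 31.4%, 31.7% and 0% of the bottom cells. Bap1 had 42.9, 50.7, 30.2 and 8.71 CPM in top cells, against 49.3, 40.4, 37.5 and 7.22 CPM in bottom cells. The sources used here do not place the probes, tags and edits on the gene, so this neither checks nor contradicts the knockout labels. Each label should be read as the submitters' name.

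The ranking genes are a description, since they chose the cells. The lowest top cell of KO skin had a score of 5242 CPM and the highest cell below it 5233 CPM. The same pair was 6341 and 6340 CPM in WT skin, 3484 and 3474 CPM in KO ocular, and 3177.2 and 3177.1 CPM in WT ocular. The median top cell held 38.5, 60, 47 and 27 UMIs of the 8 genes, against 3, 4, 5 and 4 UMIs in the median bottom cell. Ero1l, an oxidase of disulfide bond formation in the endoplasmic reticulum, gave 37.9%, 37.9% and 51.9% of these UMIs in top cells of KO skin, WT skin and KO ocular. In WT ocular it gave 11.1%, and Higd1a, a small protein of the inner mitochondrial membrane, gave 57.2%.

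Car9, a cell-surface carbonic anhydrase, was higher in top cells of each matrix. Its level was 27.4, 329, 2.14 and 9.32 CPM in top cells, against 0.603, 21.3, 0.116 and 0.424 CPM in bottom cells. In KO ocular it rested on 15 UMIs in top cells and 4 UMIs in bottom cells. Egln3 had 20.2, 173, 21.7 and 8.91 CPM in top cells, against 1.98, 9.32, 3.00 and 9.81 CPM in bottom cells. In WT ocular its 95% Poisson intervals overlapped, 6.47 to 11.96 CPM in top cells and 8.52 to 11.2 CPM in bottom cells, so this marker did not mark the cells there. These intervals cover counting error only. When cells were ranked by only 4 of the 8 genes, each of the other 4 was still higher in top than in bottom cells of every matrix, by 2.16-fold to 36.1-fold, except Egln3 in WT ocular at 0.940-fold.

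For genes outside the rule, UMIs were summed per matrix and class and compared with edgeR's quasi-likelihood test, with the matrix as a block and Benjamini-Hochberg adjustment over 10226 genes. A called gene had an adjusted p under 0.05, and a fold change is top over bottom on the log2 scale. Of the genes tested, 1054 rose in hypoxic cells, which is 10.3% of them, and 965 fell, which is 9.44%. Together 19.7% of the genes were called. Of these 2019 genes, 1970 moved the same way in all 4 matrices, 283 rose by at least 2-fold and 250 fell by at least that much. The median of all genes tested was −0.04. CPM printed here are per UMI of the shared genes, whereas the fit also used TMM factors, which raised top cells by 4.59% to 10.9% over bottom cells. Scaled by total UMIs only, the median of all genes moved by −0.11, and 759 genes rose and 1730 fell. The 4 tumours are the replicates, so the p-values measure the spread of the contrast among 4 tumours that also differ in genotype, site and workflow. The counts depend on them: without KO skin 33 genes rose and 3 fell, without WT skin 382 and 205, without KO ocular 481 and 248, and without WT ocular 1236 and 1250. Of 90 genes named below by rule, 11 were still called without KO skin, 48 of 87 tested without WT skin, 63 without KO ocular and 87 without WT ocular. Without KO skin Bnip3 and Adm passed (adjusted p = 0.0400 and 0.0492), while Cdkn1a (0.0629), Slc2a1 (0.0504) and Vegfa (0.0618) did not.

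Most tested members of the 5 lists of hypoxia genes rose. Of 86 genes listed outside the ranking genes, 73 were tested, 55 of them rose and 3 fell, and their median fold change was 1.38. Against the 10.3% of all genes that rose, 75.3% of these did. The lists were chosen with earlier results of these data known, so their direction is a description. At least a doubling in each of the 4 matrices, on the log2 ratio per matrix with 1 CPM added to both sides, was seen for 25 of the 73, against 0.567% of all genes tested.

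The promoters of 4 of these genes are shown because they carry the HIF core and belong to the largest rises. Each is the RefSeq sequence (GRCm38.p6) from 250 bases before to 50 bases after the annotated start, 5′ to 3′ on the gene's strand, and the capitals mark ACGTG or GCGTG on this strand, or CACGT or CACGC where the core lies on the other strand. Bnip3 (chr7:138909457-138909756, minus strand) has 5 matches in 4 runs, since 2 of them overlap on opposite strands. Adm (chr7:110627407-110627706, plus strand) and Ak4 (chr4:101419039-101419338, plus strand) have 2 matches each, and Hilpda (chr6:29272238-29272537, plus strand) has 1. The Ak4 window lies inside the span given for the gene, which begins at chr4:101416478, so the start used there is a later one.
Bnip3: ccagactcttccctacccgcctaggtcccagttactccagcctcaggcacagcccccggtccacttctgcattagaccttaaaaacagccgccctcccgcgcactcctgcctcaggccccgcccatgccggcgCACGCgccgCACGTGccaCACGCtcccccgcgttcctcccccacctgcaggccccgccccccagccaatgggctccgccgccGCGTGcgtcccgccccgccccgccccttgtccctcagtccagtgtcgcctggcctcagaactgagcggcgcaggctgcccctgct
Adm: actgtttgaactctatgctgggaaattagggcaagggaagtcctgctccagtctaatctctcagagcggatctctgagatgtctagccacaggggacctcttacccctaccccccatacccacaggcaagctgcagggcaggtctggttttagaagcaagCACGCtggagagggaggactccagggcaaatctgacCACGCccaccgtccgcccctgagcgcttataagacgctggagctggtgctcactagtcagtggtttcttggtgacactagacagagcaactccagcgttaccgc
Ak4: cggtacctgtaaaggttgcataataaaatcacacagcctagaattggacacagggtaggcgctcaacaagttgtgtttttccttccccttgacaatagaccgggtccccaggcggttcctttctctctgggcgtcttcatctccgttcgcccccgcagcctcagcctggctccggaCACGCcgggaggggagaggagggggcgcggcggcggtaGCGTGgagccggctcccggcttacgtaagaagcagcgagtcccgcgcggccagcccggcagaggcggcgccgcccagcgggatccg
Hilpda: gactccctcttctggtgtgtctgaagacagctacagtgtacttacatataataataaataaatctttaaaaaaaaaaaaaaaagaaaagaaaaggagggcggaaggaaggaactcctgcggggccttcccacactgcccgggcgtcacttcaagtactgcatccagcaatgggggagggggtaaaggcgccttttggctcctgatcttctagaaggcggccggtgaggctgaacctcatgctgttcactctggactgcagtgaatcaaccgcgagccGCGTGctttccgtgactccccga
Such letters are common. Of 27025 genes with a RefSeq promoter of this length, 43.8% held at least 1 match, and of the 8172 tested genes with an entry 65.4% did. The share was 70.7% of 837 genes that rose, 58.3% of 758 that fell, and 74.4% of 43 members of the hypoxia lists that rose. Of the 12 largest rises 11 had an entry, and 63.6% of these held a match, below the share of tested genes. A match is a run of letters and not a measured site.

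Genes of mitophagy, lipid storage, growth restraint and metal handling had the highest median of the 5 hypoxia lists, though below that of the secreted list without cells with other-type markers (1.60 against 1.70) and at a mean of 20 CPM (1.66 against 2.00). Of 14 tested in this list 12 rose, none fell, and the median was 1.78. Bnip3, which directs damaged mitochondria to autophagy, had 125, 145, 72.3 and 227 CPM in top cells, against 21.6, 12.5, 7.27 and 42.2 CPM in bottom cells. Its fold change was 3.05 (SE 0.21, adjusted p = 0.00128), and top cells were higher in each matrix. Hilpda, which blocks the breakdown of lipid droplets, had 568, 357, 387 and 194 CPM in top cells, against 70.8, 60.6, 69.2 and 62.1 CPM in bottom cells (2.54, SE 0.22, adjusted p = 0.00227). Top cells were higher in each matrix. Ak4, a mitochondrial adenylate kinase, had 87.2, 83.3, 74.2 and 42.5 CPM in top cells, against 24.6, 6.58, 10.0 and 11.04 CPM in bottom cells (2.67, SE 0.30, adjusted p = 0.00335). Ddit4, which restrains the growth kinase mTORC1, rose by 2.34 (SE 0.26, adjusted p = 0.00335). The metallothionein Mt1, named after its values were seen, was the most abundant gene of the list, with 4313, 5899, 1751 and 7107 CPM in top cells, against 832, 1343, 870.0 and 3860.4 CPM in bottom cells (1.71, SE 0.29, adjusted p = 0.0108).

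**Figure D1:**
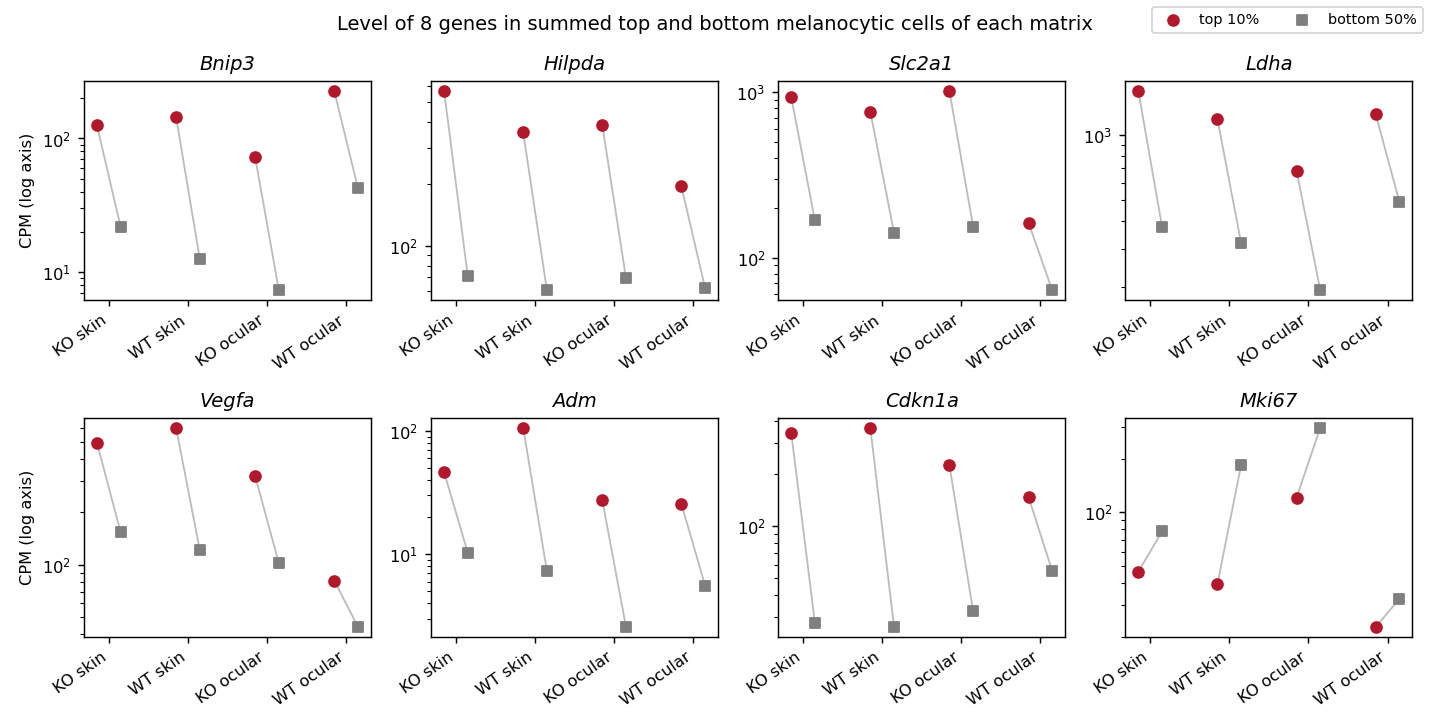
CPM on a log axis for 8 genes in the summed top 10% (red circles) and bottom 50% (grey squares) of melanocytic cells of each matrix, 1 sum per point. For 7 genes every top point lies above its bottom point, as for Bnip3 at 125 against 21.6 CPM in KO skin, and for Mki67 every top point lies below.

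Nearly all tested genes of glucose uptake and glycolysis rose. Of 27 listed 22 were tested, 21 rose, none fell, and the median was 1.48, with medians of 1.75, 1.64, 1.47 and 1.08 in the 4 matrices. Slc2a1, the glucose transporter GLUT1, was named after its values were seen: it had 933, 761, 1015 and 163 CPM in top cells, against 168, 141, 154 and 63.4 CPM in bottom cells (2.37, SE 0.23, adjusted p = 0.00283). Ldha, which turns pyruvate into lactate, had 1586, 1177, 685 and 1244 CPM in top cells, against 378, 318, 193 and 492 CPM in bottom cells (1.89, SE 0.16, adjusted p = 0.00227). Both were higher in top cells of every matrix. Hk2, the hexokinase that traps glucose in the cell, had 1524, 967, 910.4 and 245 CPM in top cells, against 495, 307, 279 and 102 CPM in bottom cells (1.67, SE 0.14, adjusted p = 0.00227).

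Glycogen genes stood among the strongest of this list. Gys1, the glycogen synthase of most tissues, had 611, 389.7, 295 and 60.1 CPM in top cells, against 114, 49.7, 44.6 and 18.9 CPM in bottom cells (2.58, SE 0.21, adjusted p = 0.00227). Gbe1, the glycogen branching enzyme, rose by 1.91 (SE 0.15, adjusted p = 0.00227). Gys1 was higher in top cells of each matrix.

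Secreted signals split. Of 11 genes tested 6 rose and 1 fell, and the median was 0.85. Adm, the vasodilator peptide adrenomedullin, had 46.5, 107, 27.4 and 25.5 CPM in top cells, against 10.2, 7.30, 2.56 and 5.56 CPM in bottom cells (3.03, SE 0.31, adjusted p = 0.00300). Stc1, the secreted glycoprotein stanniocalcin, rose by 2.48 (SE 0.28, adjusted p = 0.00341), and Apln, a peptide that acts on blood vessels, by 2.42 (SE 0.27, adjusted p = 0.00335). Pgf, a ligand of VEGF receptor 1, had 988, 789, 952 and 215 CPM in top cells, against 168, 102, 199 and 95.7 CPM in bottom cells (2.36, SE 0.28, adjusted p = 0.00354). Vegfa, the main growth signal for blood vessels, was named after its values were seen and had 493, 602, 319 and 81.0 CPM in top cells, against 152, 121, 102 and 44.0 CPM in bottom cells (1.76, SE 0.22, adjusted p = 0.00429). Igfbp3, which binds insulin-like growth factors, fell, with 45.6, 22.2, 45.0 and 80.6 CPM in top cells, against 144, 111, 135 and 90.6 CPM in bottom cells (−1.302, SE 0.29, adjusted p = 0.0223). Without cells that held at least 2 markers of any 1 other cell type, the fold change of Igfbp3 was 0.58 (adjusted p = 0.329).

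Several enzymes that modify collagen rose, while 1 of the 2 collagens in the same list, Col6a1, fell. Of 11 genes tested 7 rose and 1 fell, and the median was 1.08. P4ha2, a catalytic subunit of collagen prolyl hydroxylase, rose by 2.16 (SE 0.19, adjusted p = 0.00227), its paralogue P4ha1 by 1.28 (SE 0.17, adjusted p = 0.0049) and their partner P4hb by 1.08 (SE 0.16, adjusted p = 0.0078). Col6a1 fell by 0.83 on the log2 scale (SE 0.16, adjusted p = 0.0151), and Col5a1 did not pass (−0.08, adjusted p = 0.709). Lox, a collagen crosslinking enzyme named after its values were seen, passed at 1.39 (SE 0.41, adjusted p = 0.0469) but was lower in KO skin, with 13.2 CPM in top cells against 18.3 CPM in bottom cells.

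Among the HIF subunits and their regulators, several feedback genes rose and the subunits did not move together. The regulators Cited2 (0.51, adjusted p = 0.217), Egln2 (−0.13, adjusted p = 0.393) and Hif1an (−0.05, adjusted p = 0.795) did not pass. Of 15 tested 9 rose and 1 fell, and the median was 0.73. Ankrd37, a small HIF target, had 63.4, 40.4, 34.2 and 54.1 CPM in top cells, against 15.5, 3.94, 5.47 and 15.8 CPM in bottom cells (2.52, SE 0.25, adjusted p = 0.00288). Bhlhe40, the transcriptional repressor named above, had 1334, 1492, 890.0 and 240.0 CPM in top cells, against 364, 335, 347 and 141 CPM in bottom cells (1.66, SE 0.23, adjusted p = 0.00664). Vhl, the ubiquitin ligase subunit that recognises HIF, rose by 1.42 (SE 0.16, adjusted p = 0.00354) and the histone demethylase gene Kdm4b by 1.25 (SE 0.14, adjusted p = 0.00341).

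Hif1a did not pass at 0.43 (SE 0.14, adjusted p = 0.0634; chosen after its values were seen), although DESeq2 called it (adjusted p = 0.00969). Epas1, which encodes HIF-2α and is strong in endothelium, fell, with 12.8, 13.2, 17.9 and 12.4 CPM in top cells, against 17.3, 29.0, 57.1 and 25.7 CPM in bottom cells (−0.98, SE 0.21, adjusted p = 0.0204). The KO ocular bottom value came mostly from deciles 2 and 3 of the ranking, at 69.1 and 129 CPM. Without cells with at least 2 markers of another type the fold change was −0.11 (adjusted p = 0.915).

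**Figure D2:**
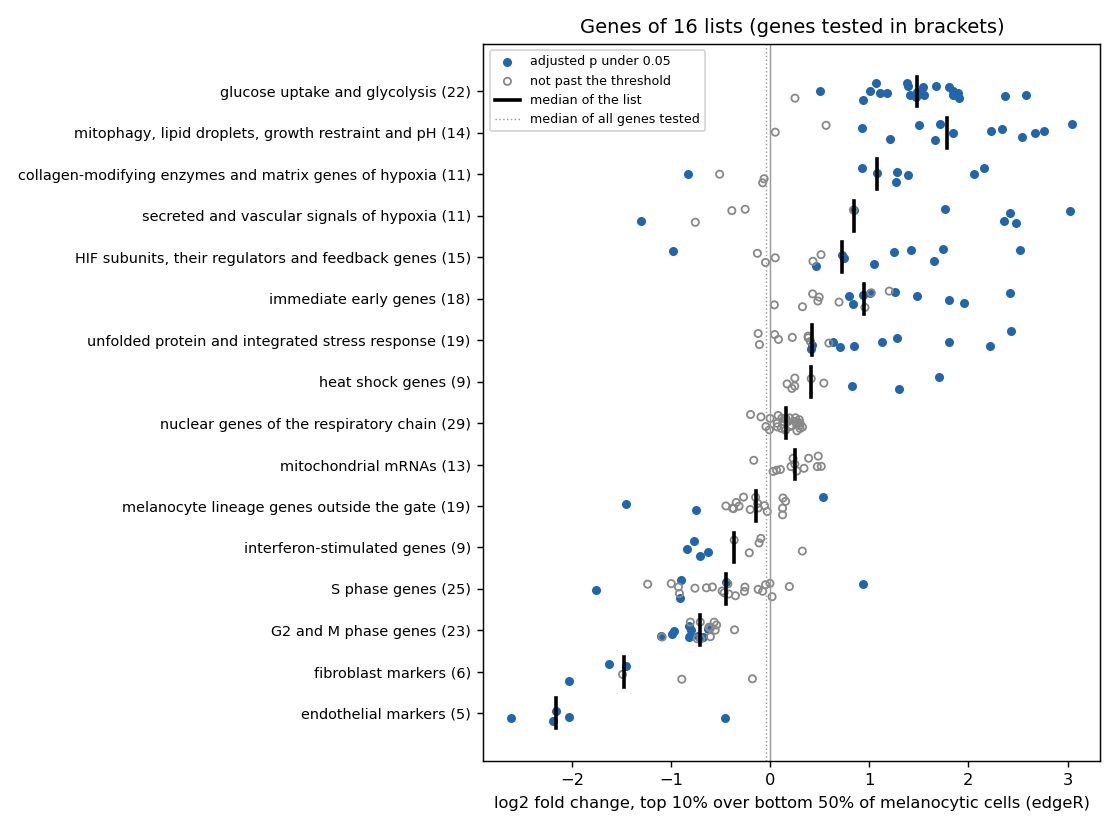
Log2 fold change of top over bottom cells for each tested gene of 16 lists, with the number tested in brackets. Filled points passed an adjusted p of 0.05, bars are list medians, and the dotted line is the median of all genes tested, −0.04; the glycolysis list lies to its right with a median of 1.48 and the endothelial markers to its left with −2.15.

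Outside the 5 hypoxia lists, 5 genes stood among the 12 largest rises. Cdkn1a, which encodes the cell cycle inhibitor p21, had 344, 368, 223 and 147 CPM in top cells, against 27.6, 26.2, 32.3 and 55.0 CPM in bottom cells (3.04, SE 0.39, adjusted p = 0.00475). Dipk2a, a secretory pathway protein with a kinase-like fold, had 144, 165, 135 and 29.2 CPM in top cells, against 15.2, 17.7, 23.7 and 10.1 CPM in bottom cells (2.78, SE 0.28, adjusted p = 0.00300). Pdxp, which removes the phosphate from vitamin B6, had 119.8, 136, 68.6 and 38.5 CPM in top cells, against 22.5, 11.8, 14.2 and 14.1 CPM in bottom cells (2.53, SE 0.30, adjusted p = 0.00354). These were higher in top cells of each matrix. Smtnl2, a smoothelin-like gene, had the smallest adjusted p of all genes (2.17, SE 0.12, adjusted p = 0.000705) and was chosen for that.

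The other two, Mmp10 and Bpifa2, rested mostly on WT skin. Mmp10, a secreted matrix protease, rose by 2.59 (SE 0.60, adjusted p = 0.0254), but its level was 287 CPM in top cells of WT skin against 19.3 CPM in its bottom cells, and under 6 CPM in both classes of the other 3 matrices. Bpifa2, a secreted protein of saliva, had 6.45, 136, 0.715 and 3.04 CPM in top cells, against 0.387, 24.2, 0.407 and 0.519 CPM in bottom cells (2.71, SE 0.38, adjusted p = 0.00664). WT skin carried most of the UMIs of both, and without it both fell below the level at which genes were tested.

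Of 19 genes of the unfolded protein and integrated stress responses, 10 rose, none fell, and the median was 0.42. Of all genes tested, 10.3% rose and 9.44% fell. The 4 with the smallest adjusted p are known targets of the stress factor ATF4 or its partners. Psat1, Slc7a11, Slc7a5, Slc3a2 and Chac1 of the same list did not pass (adjusted p = 0.174 to 0.903). Trib3, a pseudokinase, had 99.0, 42.3, 91.7 and 11.1 CPM in top cells, against 14.8, 19.2, 11.4 and 4.76 CPM in bottom cells (2.21, SE 0.34, adjusted p = 0.00926). Ddit3, which encodes CHOP, had 554, 123, 458 and 135 CPM in top cells, against 269.6, 59.1, 187 and 84.3 CPM in bottom cells (1.13, SE 0.13, adjusted p = 0.00354). Sesn2 rose by 1.28 (SE 0.21, adjusted p = 0.0106) and Asns, the asparagine synthetase, by 0.85 (SE 0.14, adjusted p = 0.00990).

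Immediate early genes, which dissociation of tissue is also known to induce, rose for 9 of 18 with none lower, at a median of 0.95. By matrix the medians were 1.67, 1.41, 0.82 and 0.11, so WT ocular stood near 0. Atf3, a stress-induced factor, had 71.4, 63.4, 66.5 and 71.1 CPM in top cells, against 24.2, 9.41, 17.5 and 47.0 CPM in bottom cells (1.80, SE 0.30, adjusted p = 0.0108). Ier3 rose by 1.96 (SE 0.24, adjusted p = 0.00361). Fosl1 rose by 2.42 (SE 0.48, adjusted p = 0.0168) and Jund by 1.01 (SE 0.21, adjusted p = 0.0194), both components of AP-1. Of 9 heat shock genes 3 rose, with a median of 0.41. The chaperone gene Hspa1b had 132, 40.4, 58.7 and 24.5 CPM in top cells, against 23.03, 14.4, 13.4 and 24.1 CPM in bottom cells (1.71, SE 0.37, adjusted p = 0.0216), with WT ocular nearly level. Dnajb1 rose by 1.304 (SE 0.17, adjusted p = 0.00561). The part of tissue dissociation in these values was not tested. Of 10 iron handling genes 1 rose and 1 fell, at a median of −0.21. These shares are near the 10.3% and 9.44% of all genes tested. Hmox1, the haem-degrading enzyme, rose (1.83, SE 0.20, adjusted p = 0.00335). Steap3, a reductase of endosomal iron, fell (−0.51, SE 0.12, adjusted p = 0.0279).

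Part of the cell cycle genes fell in hypoxic cells. Of 23 genes of G2 and mitosis 10 fell and none rose, and the median was −0.70. All 23 were lower in each of the 4 matrices, against 25.6% of all genes tested. Mki67, the proliferation marker, had 46.3, 39.5, 121 and 22.7 CPM in top cells, against 78.0, 185, 298 and 32.6 CPM in bottom cells (−1.10, SE 0.25, adjusted p = 0.0234). Hmmr, a spindle protein, fell by 0.99 on the log2 scale (SE 0.18, adjusted p = 0.0137), Plk1, a mitotic kinase, by 0.97 (SE 0.18, adjusted p = 0.0150) and Cenpe, a kinetochore motor, by 0.81 (SE 0.16, adjusted p = 0.0171). Of 25 S phase genes 4 fell and 1 rose, beside 9.44% and 10.3% of all genes tested, and the median was −0.45. Dtl, a licensing control factor, fell by 1.76 on the log2 scale (SE 0.38, adjusted p = 0.0214), while Ung, which removes uracil from DNA, rose by 0.93 (SE 0.17, adjusted p = 0.0120). The WT skin medians of both lists, −0.85 for S phase and −1.50 for G2 and mitosis, lay well below those of the other matrices, and without WT skin 3 G2 and mitosis genes and no S phase gene passed as lower. Without KO skin none of either list passed, and without KO ocular 2 of each passed as lower.

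A cell with at least 2 of the G2 and mitosis genes after thinning to 2000 UMIs was counted as cycling. The share was 9.78%, 8.99%, 23.3% and 24.5% of top cells, against 14.0%, 26.0%, 32.7% and 29.5% of bottom cells. It was lower in top cells of all 4 matrices, 16.7% against 25.6% on average, a difference of −8.89 percentage points ± 5.90 (SD, n = 4). An exact two-sided sign-flip permutation test over the matrices gave p = 0.125, the smallest that 4 matrices allow. Without thinning the means were 42.7% in top cells and 49.6% in bottom cells. The bottom 50% was not uniform: in KO skin the summed G2 and mitosis genes were at 561 CPM in decile 10 (the top) of the ranking, 1108 CPM in decile 4 and 552 CPM in decile 1.

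Of 15 genes of CDK inhibition and the p53 response, 4 rose and 2 fell, at a median of 0.19. Among all genes tested 10.3% rose and 9.44% fell. Beside Cdkn1a, those that rose were Cdkn1b, which encodes p27 (0.85, SE 0.14, adjusted p = 0.0102), Phlda3 (0.76, SE 0.14, adjusted p = 0.0131) and Bbc3, which encodes PUMA (0.72, SE 0.17, adjusted p = 0.0262). Those that fell were Cdkn2c, itself a CDK inhibitor (−0.69, SE 0.19, adjusted p = 0.0418), and Trp53inp1 (−0.83, SE 0.24, adjusted p = 0.0437). The remaining 9 did not pass. Cdkn1a rose steeply at the end of the ranking. Its level in deciles 1, 5, 9 and 10 was 22.5, 29.6, 165 and 344 CPM in KO skin, and 15.6, 32.6, 171 and 367 CPM in WT skin. In KO ocular it was 65.6, 31.8, 72.4 and 223 CPM, and in WT ocular 50.2, 56.6, 83.8 and 147 CPM.

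**Figure D3:**
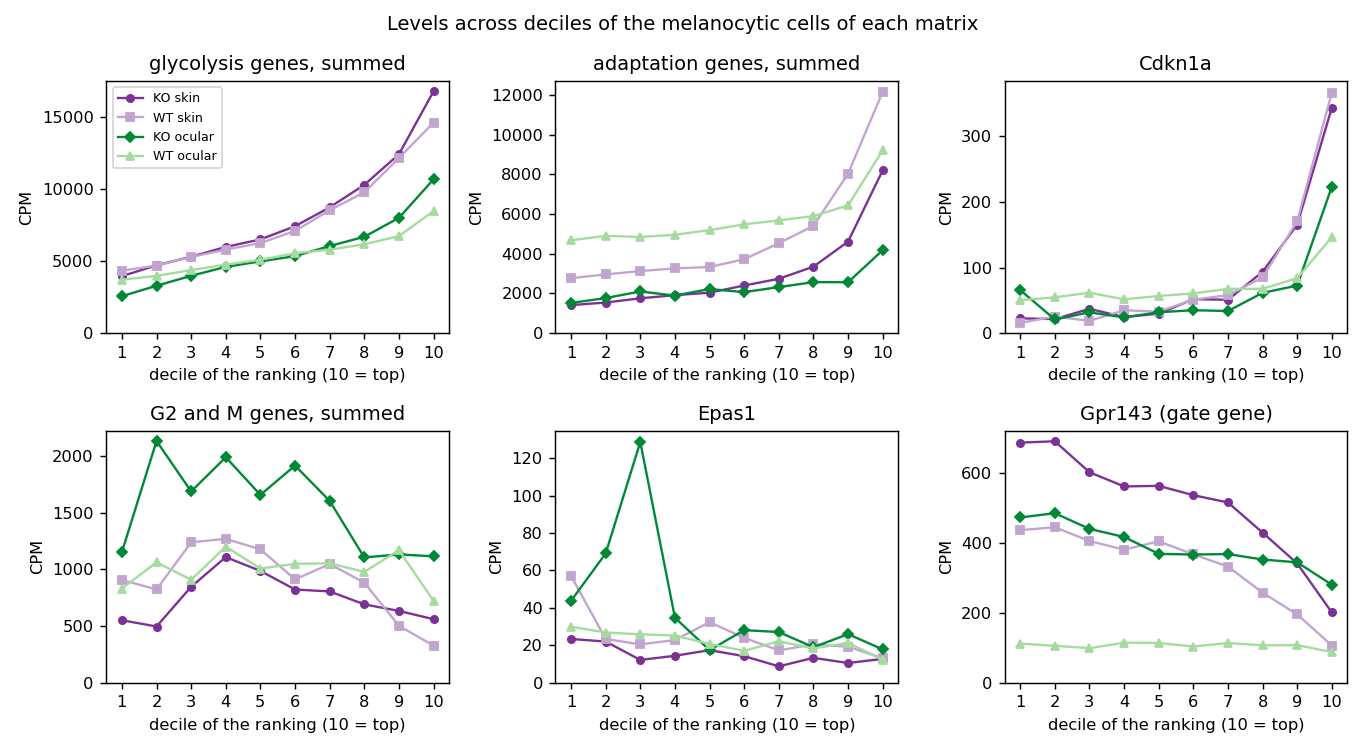
CPM of 3 summed lists and 3 genes (y axes) in each decile of the melanocytic cells, ordered by the 8 ranking genes from lowest (1) to top (10), 1 line per matrix. Summed glycolysis genes climb through all deciles of KO skin to 16823 CPM, Cdkn1a turns up in the last deciles, and summed G2 and M genes are highest in the middle of the ranking in KO skin.

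The pigment cell genes of the gate are values with no test, since they chose the cells. Gpr143, a melanosome receptor, had 201, 106, 280.2 and 87.5 CPM in top cells, against 612, 411, 428 and 109 CPM in bottom cells. Oca2, a melanosome channel, had 331, 225, 658 and 183 CPM in top cells, against 912, 846, 1036 and 284 CPM in bottom cells. Mlana differed less, with 1563, 2083, 1719 and 2219.6 CPM in top cells, against 1571, 3346, 1853 and 2606 CPM in bottom cells. In these CPM, which leave out the TMM factors, all 9 gate genes were lower in top cells of each matrix. The factors add 10.9% to top cells of KO skin and 7.96% to those of KO ocular. That is more than the gap of Mlana in KO skin, and of Mlana, Pmel and Slc45a2 in KO ocular. For these the direction depends on the scaling.

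Lineage genes outside the gate mostly did not pass. Of 19 tested 1 rose and 2 fell, and the median was −0.15. Among all genes tested 10.3% rose and 9.44% fell, so the list did not stand out by these counts. Mitf, the pigment regulator named above and chosen after its values were seen, did not pass (−0.27, SE 0.14, adjusted p = 0.182), with log2 ratios of 0.04, −0.55, −0.30 and −0.27. Trpm1, a melanocyte ion channel, had 978, 671, 1153 and 502 CPM in top cells, against 1757, 1701, 1870.0 and 742 CPM in bottom cells (−0.75, SE 0.16, adjusted p = 0.0191). The adhesion gene Cdh1 (E-cadherin), which epithelial cells also use, fell by 1.45 on the log2 scale (SE 0.39, adjusted p = 0.0391). Tfap2a, a lineage transcription factor, rose by 0.54 (SE 0.12, adjusted p = 0.0211). Of 16 genes of dedifferentiated melanoma, Vim (0.59, SE 0.13, adjusted p = 0.0216) and Cdh2, N-cadherin (0.57, SE 0.15, adjusted p = 0.0378) rose, Aqp1 fell (−1.34, SE 0.29, adjusted p = 0.0219), and the median was −0.03. These counts too were near the shares of all genes tested. Without cells with at least 2 markers of another type Aqp1, a water channel that endothelium also uses, stood at 0.80.

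Respiratory chain genes passed in neither direction. None of 29 nuclear genes (median 0.16) and none of 13 mitochondrial mRNAs (median 0.25) was called with edgeR. At an unadjusted p under 0.05 stood 3 of the 29 and 4 of the 13, and DESeq2 called 4 of the 29 and 5 of the 13 higher. Median mitochondrial UMIs were 0.237%, 2.60%, 1.08% and 7.59% in top cells, against 0.210%, 1.88%, 0.638% and 8.89% in bottom cells. Of 19 cholesterol synthesis genes Sqle rose (0.50, SE 0.13, adjusted p = 0.0347) and none fell, beside 10.3% and 9.44% of all genes tested. None of the 30 ribosomal protein genes listed was tested, because KO skin, WT skin and KO ocular do not list them.

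Some interferon-stimulated genes fell. Of 9 such genes 4 fell, none rose, and the median was −0.36. Stat2 fell by 0.77 on the log2 scale (SE 0.20, adjusted p = 0.0348), Ifit2 by 0.84 (SE 0.21, adjusted p = 0.0304) and Irgm1 by 0.70 (SE 0.20, adjusted p = 0.0422). Isg15, chosen after its values were seen, did not pass (0.33, adjusted p = 0.700), with log2 ratios of 1.73, 1.42, −1.61 and −0.49. Of 11 genes of MHC class I presentation 1 fell and none rose, a share near the 9.44% of all tested genes that fell. It was Nlrc5, the activator of that pathway (−1.18, SE 0.26, adjusted p = 0.0210). Among 9 checkpoint and purine genes, Lgals3 (0.95, SE 0.21, adjusted p = 0.0214) and Cd47, the signal against engulfment (0.92, SE 0.15, adjusted p = 0.00990), rose. Entpd1, which degrades extracellular ATP (−1.23, SE 0.28, adjusted p = 0.0240), and Lgals9 (−0.52, SE 0.14, adjusted p = 0.0357) fell. The median of this list was −0.16, and of all genes tested 10.3% rose and 9.44% fell. Its other 5 genes did not pass, among them Cd274 (0.56, adjusted p = 0.182), Cd276 (−0.46, adjusted p = 0.0548) and Nt5e (−1.50, adjusted p = 0.127).

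The 12 largest falls held 3 collagens and several genes of epithelia, and the endothelial markers tested fell too. Col3a1 had 63.7, 94.5, 40.2 and 132 CPM in top cells, against 419, 572, 176 and 285 CPM in bottom cells (−2.03, SE 0.25, adjusted p = 0.00389). Col1a2 fell by 1.63 on the log2 scale (SE 0.24, adjusted p = 0.00733) and Col1a1 by 1.46 (SE 0.23, adjusted p = 0.00925). All 3 are fibroblast markers, and the 6 markers of that list summed to 336, 991, 167 and 459 CPM in top cells, against 1617, 2736, 680 and 805 CPM in bottom cells, with none at 0. Pdgfra, Lum and Dcn of the same list did not pass (adjusted p = 0.0963, 0.112 and 0.718). Dcn was higher in top cells of KO skin and WT skin (log2 ratios 0.20 and 0.78), and Lum in WT skin (0.26). Both were lower in top cells of the remaining matrices. The 6 endothelial markers summed to 37.9, 31.7, 64.0 and 90.5 CPM in top cells, against 105, 132, 167 and 149 CPM in bottom cells, and Tie1 was at 0 in top cells of WT skin. Of the 5 endothelial markers tested all 5 fell, against 9.44% of all genes tested, with Pecam1 at −2.19 (SE 0.46, adjusted p = 0.0199). In 4 other marker lists 1 gene each fell and none rose: Lyz2 (macrophage), Il1b (neutrophil), Myh11 (smooth muscle) and Hba-a1 (red cell), at −0.59 to −1.06. No gene of the lymphoid, keratinocyte, retinal pigment epithelium or liver lists passed. Red cell markers summed to 255, 276, 3850 and 7656 CPM in top cells, against 444, 174, 10026 and 17373 CPM in bottom cells. They were lower in top cells of each matrix except WT skin.

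For Plet1, Ly6a, Asprv1 and Ly6e the fall was largest in KO ocular. Plet1, a surface protein of epithelia, had 0, 0.216, 1.86 and 25.7 CPM in top cells, against 0.215, 0.480, 375 and 76.3 CPM in bottom cells (−3.84, SE 1.11, adjusted p = 0.0458). Ly6a, a surface antigen, had 0, 1.29, 3.14 and 29.6 CPM in top cells, against 4.00, 12.7, 295 and 75.4 CPM in bottom cells (−3.51, SE 0.86, adjusted p = 0.0301). Asprv1, a protease of cornified epithelium, had 2.01, 5.83, 8.003 and 25.5 CPM in top cells, against 4.86, 10.8, 411 and 109 CPM in bottom cells (−2.74, SE 0.75, adjusted p = 0.0402). Ly6e had log2 ratios of −1.50, −0.64, −3.62 and −0.79 in the 4 matrices (−1.71, SE 0.48, adjusted p = 0.0418). Without KO ocular the fold changes of Plet1, Ly6a, Asprv1 and Ly6e were −1.52, −2.13, −1.45 and −1.04. Without KO skin or without WT skin none of the 4 passed. Cells with UMIs of at least 2 of 12 genes of conjunctival and cornified epithelium, a check added after the values were seen, made up 7.07% of KO ocular top cells and 8.73% of its bottom cells, and 19.4% of WT ocular top cells and 22.3% of its bottom cells. Without such cells in any matrix Asprv1 stood at −0.06 (adjusted p = 0.894). Asprv1 and Plet1 are among the 12 genes that this filter itself uses, so this value does not show where their RNA came from.

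Genes not among those markers fell as well. Gjc3, a connexin of glia, fell by 1.53 on the log2 scale (SE 0.25, adjusted p = 0.0105) and Slco1a4, an organic anion transporter, by 1.61 (SE 0.29, adjusted p = 0.0130). Gsta4, a glutathione transferase, fell by 1.49 (SE 0.30, adjusted p = 0.0185) and Gucy2f, a guanylate cyclase of photoreceptors, by 1.48 (SE 0.27, adjusted p = 0.0136). Gucy2f had 94.4, 55.2, 39.9 and 10.3 CPM in top cells, against 582, 171, 90.7 and 15.8 CPM in bottom cells. Gpx3, a secreted peroxidase whose fold change was 1.65 without cells with other-type markers (adjusted p = 0.153), fell by 1.44 (SE 0.23, adjusted p = 0.00997).

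A stricter set left out every cell with at least 2 markers of any 1 of the other cell types listed, which removed 66.4%, 87.0%, 75.1% and 86.7% of the melanocytic cells. There 685 genes rose and 470 fell, and the hypoxia lists had medians of 1.37 (glycolysis), 1.60 (adaptation), 1.11 (matrix), 1.70 (secreted) and 0.95 (HIF regulators). Gjc3 was at −2.36 (adjusted p = 0.000143) and Slco1a4 at −2.51 (adjusted p = 0.000149). Col3a1 was at −0.06 (adjusted p = 0.954), a gene that the filter itself uses. G2 and mitosis genes had a median of −0.88, with 7 of 23 lower. The part of RNA from other cells in the remaining falls was not tested.

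**Figure D4:**
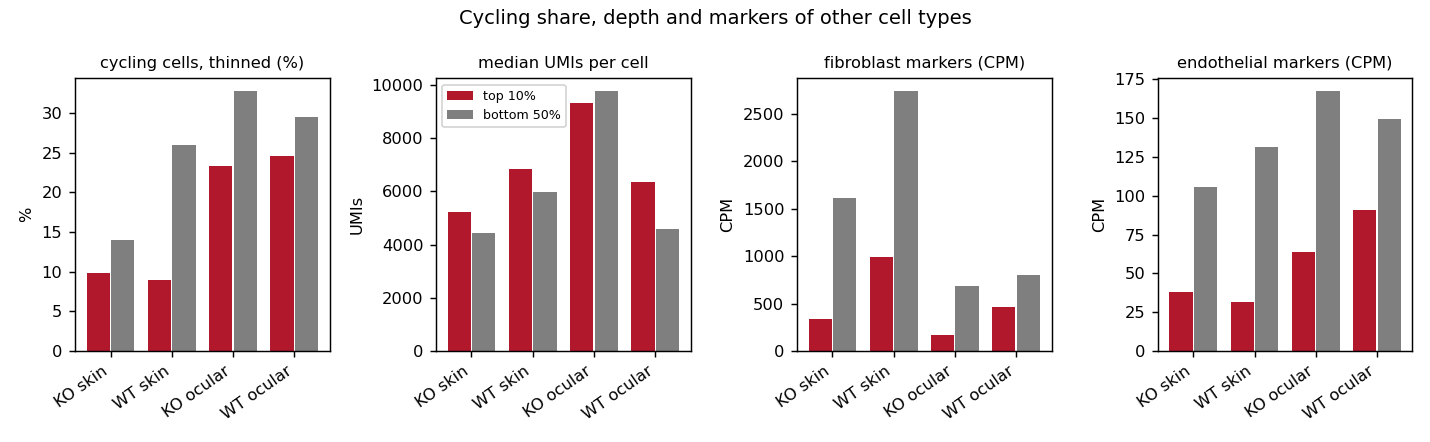
Per matrix, top 10% (red, left bar) and bottom 50% (grey, right bar) of melanocytic cells: percent of cycling cells after thinning to 2000 UMIs, median UMIs per cell, and summed CPM of 6 fibroblast and 6 endothelial markers. Cycling shares and both marker sums are lower in top cells of every matrix, whereas median UMIs are higher in 3 of the 4.

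Depth moved with the ranking in 3 matrices. The median top cell had 5231, 6836, 9330.0 and 6364 UMIs, against 4451, 5961, 9757 and 4581 UMIs for the median bottom cell (exact two-sided sign-flip permutation p = 0.25, n = 4). Ranking the cells within 10 bins of total UMIs took this away, and 1011 genes then rose and 887 fell, 1774 of the 2019 calls with the same sign. After thinning to 2000 UMIs the median top cell had 1220 genes on average and the median bottom cell 1247, lower in top cells of all 4 matrices (exact permutation p = 0.125, the smallest possible).

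The contrast was compared between sites and between genotypes, with 2 matrices on each side. Between ocular and skin matrices no gene passed with edgeR (0% of those tested), with 996 at an unadjusted p under 0.05 and 65 by DESeq2. The difference, ocular minus skin, had a median of −0.42 for glycolysis, −0.75 for the adaptation list and −0.99 for immediate early genes, beside −0.01 for all genes. It ran the other way for cholesterol synthesis genes, at 0.88 with 19 of 19 above 0, and for G2 and mitosis genes, at 0.51 with 23 of 23 above 0. WT skin stood apart in both, with list medians of −1.13 for cholesterol synthesis and −1.50 for G2 and mitosis, against −0.20 to 0.29 and −0.48 to −0.39 in the other 3 matrices. WT ocular had the smallest log2 ratio of the 4 matrices for 71 of the 90 genes named by rule. Its workflow also differs from that of the other 3, so workflow and tumour cannot be told apart there. Between KO and WT matrices Plet1 was the 1 gene that passed (0.00978% of those tested), at −6.05 (SE 0.39, adjusted p = 0.00534), with 364 at an unadjusted p under 0.05 and 10 by DESeq2, which did not call Plet1 (adjusted p = 1.00). Within KO ocular, bottom cells held nearly all of its UMIs. No member of the 5 hypoxia lists passed for a difference by site or by genotype, and with 2 matrices a side this does not show that the responses were alike.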

How the data were processed

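The 4 UMI count matrices of 1 multiplexed single-cell sample were used. The deposited values are raw UMI counts per gene and barcode, made by the authors with Cell Ranger 8.0.0 (KO skin, WT skin, KO ocular) or 7.0.0 (WT ocular), per the file headers. The builds are GRCm38 and mm10, per the submitters' processing notes. The tissue was prepared by a 10x Genomics fixed workflow and a 3′ kit is also named, per the labels' protocols, and the sources used here do not say which assay made which matrix. The members and gene lists were chosen with earlier results of these data known.

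Cells were selected and ranked as the report states, with CPM of the ranking score taken over all UMIs of the cell. Doublets were not called; cells with markers of other types, or the 5% with the most UMIs, were left out as alternatives. UMIs were summed per matrix and class (4.63 to 34.4 M UMIs a sum) over the genes listed in all 4 matrices. Genes with a mean of at least 5 CPM over the 8 sums and a UMI in every matrix were tested with edgeR 4.0.16 (R 4.3.3; TMM, quasi-likelihood F test, matrix as a block), the ranking, gate and exclusion genes left out. The SE is the fold change over the root of F. DESeq2 1.42.0 was an alternative, as were other scalings, filters, classes, rankings and leaving out each matrix. The pipeline was tested on simulated counts. The same matrix gives a top and a bottom sum, so the matrix pairs them.

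Genes named by rule were the 12 largest rises and falls among called genes of 1 sign in all 4 matrices with a mean of at least 20 CPM, up to 4 members of each list with the smallest adjusted p, and members of hypoxia lists that moved against the majority. Others are marked as chosen after their values were seen. Some genes that the rule names are not reported here.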

Additional observations from a re-analysis of the deposited data

Results flagged for a closer look

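With 4 matrices, a value was singled out where its gap to the nearest other matrix, as a share of the range, exceeded Dixon's 95% critical value, which chance does for about 1 in 20 groups. That held for 3 of 90 named genes and 2 of 29 lists. The log2 ratio of Hk2 was 1.32 in WT ocular and 1.77 to 1.81 in the other 3 matrices. For Apln it was 1.13 in WT ocular and 2.68 to 2.73 in the others, and for Gjc3 it was −0.39 in WT ocular and −1.92 to −1.67 in the others. The list medians stood apart in WT skin, at −0.85 for S phase genes (others −0.27 to −0.18) and −1.50 for G2 and M phase genes (others −0.48 to −0.39).

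The contrast of Plet1 differed between KO and WT matrices by −6.05 (edgeR, adjusted p = 0.00534). It was −2.83 without KO ocular (adjusted p = 0.979) and −4.82 with DESeq2 (adjusted p = 1.00), so the call rests on KO ocular and on the tool. Chac1, a glutathione-degrading enzyme of the ATF4 response, moved in opposite directions at the 2 sites. Its log2 ratios were −1.47 in KO ocular and −1.29 in WT ocular, against 1.31 in KO skin and 0.78 in WT skin, a difference of mean ratios of −2.42. With edgeR the difference was −2.82 (adjusted p = 0.206), with DESeq2 −2.82 (adjusted p = 0.000503), and −0.69 without cells with other-type markers (adjusted p = 0.927).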

How the results depend on the processing

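With no replicate block, which ignores that each matrix gives both sums, 0 genes rose and 0 fell by edgeR, with 558 at an unadjusted p under 0.05. With DESeq2 1524 rose and 1139 fell. Scaled by total UMIs only, 1730 genes fell. Without cells with other-type markers 685 rose and 470 fell. Leaving out each matrix gave 33 to 1236 genes that rose and 3 to 1250 that fell. Site differences numbered 65 with DESeq2, 69 with no filter, 17 without cells with other-type markers and 1 to 67 without each matrix. Genotype differences numbered 10, 25, 0 and 0 to 100 under the same settings. Unthinned, the median genes per cell differed by 109.9, top minus bottom.

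Against the middle 50% to 90% of cells, list medians were 0.41 (HIF regulators), 0.71 (glycolysis), 1.08 (adaptation), 0.67 (matrix), 0.053 (CDK inhibitors and p53), 0.28 (dedifferentiation), −0.14 (MHC class I) and −0.14 (iron). Without cells with other-type markers they were 0.95 (HIF regulators), 1.70 (secreted), −0.29 (melanocyte lineage), 0.45 (dedifferentiation), −0.17 (MHC class I), 0.14 (checkpoint) and −0.14 (iron). Scaled by total UMIs they were 0.080 (CDK inhibitors and p53), −0.15 (dedifferentiation), −0.40 (MHC class I) and −0.33 (iron). At a mean of 20 CPM they were 2.00 (secreted), −0.11 (dedifferentiation), −0.10 (MHC class I), 0.29 (checkpoint) and −0.27 (iron); with no filter checkpoint genes were at −0.44. With the top 5% they were −0.28 (melanocyte lineage) and 0.074 (dedifferentiation), and with the top 20% −0.14 (iron).

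The median of the dedifferentiation list lay near 0 and changed with most settings: 0.016 with no block, −0.079 within UMI bins, −0.092 at 4000 UMIs, 0.10 with 7 of 9 gate genes, 0.029 and 0.053 when ranked by either 4 of the ranking genes, and −0.068 to 0.050 without each matrix. MHC class I genes were at −0.15 with no block, −0.21 under 10% mitochondrial UMIs, −0.090 with 7 of 9 gate genes, −0.21 without the 5% of cells with the most UMIs and −0.27 to −0.10 without each matrix. Checkpoint genes were at −0.40 to 0.060 without each matrix. Iron genes were at −0.18 with the thinned score, −0.16 when ranked by Egln1, Ero1l, Plod2 and Fam162a, and −0.20 to −0.17 without each matrix. Single genes changed sign only as follows: without cells with other-type markers Gpx3 was at 1.65, Aqp1 at 0.80 and Igfbp3 at 0.58, and ranked by Car9, Egln3, Higd1a and Pdk1, Il1b was at 0.20. The cause was not tested.

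The main limit is 1 tumour per genotype and site, with 1 tumour of another workflow. A top cell held a median of 27 to 60 UMIs of the ranking genes. The filter on other-type markers removes most cells and cannot separate free RNA from other cells.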
